A study of Mus musculus with 15 samples.

Results

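The slit diaphragm genes described here are 9 genes chosen by symbol for their known place at the foot process junction, of 46078 genes in the count table: Nphs1, Kirrel and Fat1, which encode adhesion proteins, Cd2ap and Magi2, which encode scaffolds, Trpc6 and Plce1, which encode signaling proteins, and Podxl and Ptpro, which encode membrane proteins of the apical surface of the podocyte. RNA was sequenced from nephrin-sorted podocyte fractions of the kidney cortex of male C57BL/6J mice, with 5 mice per group in the labels. Young mice were 4 months old and were not injected. Aged mice were 21 months old at the start and received weekly intraperitoneal injections at 12 mg/kg for 8 weeks, of the anti-PD-1 antibody RMP1-14 (aPD1ab) or of its isotype control, IgG2a clone 2A3. Neither aged group had an uninjected counterpart and the young mice received no antibody, so age and injection of IgG2a cannot be told apart between young and IgG2a. The sample titles of the aPD1ab mice give 47 days instead of 8 weeks. The 13 libraries that could be tied to a group, by the column numbers printed in the principal component plot of the study, were 5 young, 4 aged IgG2a and 4 aged aPD1ab, with 19912969 to 32717100 counts each. All 9 genes passed the filter on low counts in every comparison.

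Podocytes are the epithelial cells that wrap the glomerular capillaries with interdigitating foot processes. The slit diaphragm is the junction that bridges neighboring foot processes, and it forms the last barrier of the filter. Nephrin (Nphs1) and the nephrin-like protein NEPH1 (Kirrel) meet across the slit, and their cytoplasmic tails bind scaffolds and kinases that link the junction to actin. Inherited defects of several of these genes cause proteinuria.

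The fractions were bulk RNA and held other cells as well as podocytes, so fewer podocytes and less RNA per podocyte cannot be told apart in any value below. CPM here are counts per 1000000 of a library total that was first scaled by the trimmed mean of M-values (TMM). The TMM factors were 1.03 to 1.18 in young, 0.725 to 1.02 in IgG2a and 0.896 to 1.12 in aPD1ab. The summed level of 11 podocyte genes that are not members (Wt1, Synpo and others) was 370 to 582 CPM in young, 106 to 202 CPM in IgG2a and 111 to 338 CPM in aPD1ab. No gene of this list was at 0 in any library. Macrophage markers (6 genes) summed to 1539 to 2883 CPM in young and 1902 to 4200 CPM in aPD1ab. In IgG2a replicate 1 they summed to 2516 CPM, but in the other 3 IgG2a libraries to 5912 to 7359 CPM. Proximal tubule markers (10 genes) summed to 9931 to 15154 CPM in young, to 7437 CPM in IgG2a replicate 1, to 1309 to 2118 CPM in the other IgG2a libraries and to 7548 to 8359 CPM in 3 aPD1ab libraries, with 21559 CPM in aPD1ab replicate 2. IgG2a replicate 1 therefore stood apart from its group on these 3 lists, and each comparison that holds it is given with and without it. The aPD1ab replicate 2 library also stood apart from its group on these lists. Its podocyte sum was 111 CPM against 197 to 338 CPM in the other aPD1ab libraries, and its macrophage sum 1902 against 3040 to 4200 CPM. Of the other lists, endothelial genes (7) summed to 664 to 974 CPM in young, 504 to 639 CPM in IgG2a and 311 to 857 CPM in aPD1ab, and mesangial and pericyte genes (5) to 217 to 261, 75.6 to 140 and 103 to 188 CPM in the same order. The sums of the lists for loop and distal tubule, parietal epithelium, T and B cells and erythroid cells overlapped between all 3 groups. In IgG2a replicate 1 the loop and distal tubule sum was 13569 CPM and the parietal sum 87.2 CPM. Without it, the IgG2a sums for loop and distal tubule were 5734 to 6261 CPM, below all young libraries at 6431 to 9143 CPM. The parietal epithelium sums were then 122 to 148 CPM, above all young libraries at 81.9 to 106 CPM. Of the parietal genes only Cd44 had a higher mean there (107 CPM against 52.3 CPM in young). The means of Pax8 (19.2 against 34.2 CPM), Cldn1 (3.68 against 9.86 CPM) and Ncam1 (1.04 against 1.56 CPM) were lower, so the parietal sum does not show a rise of the list. No marker of any list was at 0 in a library. The part of these cell type markers in the members' values was not tested.

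**Figure D1:**
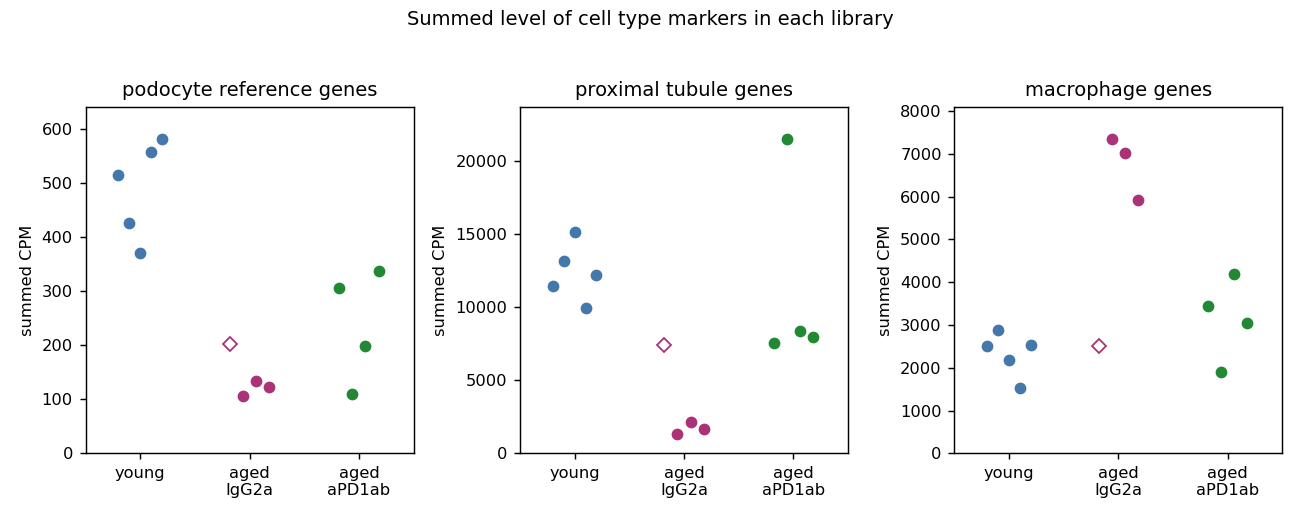
Summed CPM (y axis) of the 11 podocyte reference genes, the 10 proximal tubule genes and the 6 macrophage genes in each library, by group. Filled circles are libraries and the open diamond is IgG2a replicate 1, which lies nearer to the young libraries than the other 3 IgG2a libraries do in each panel.

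Per unit of gene length, Podxl was the most abundant member in every group. Podocalyxin, its product, is the main sialoprotein of the podocyte surface. In TPM (counts divided by exon length and scaled to a total of 1000000), the young mean was 265 ± 70.1 (SD, n = 5) for Podxl. It was 27.4 ± 6.06 for Ptpro, 24.9 ± 7.22 for Nphs1 and 20.3 ± 3.49 for Cd2ap, which overlapped within 1 SD. Fat1 followed at 11.2 ± 4.43 TPM and Kirrel at 5.35 ± 1.82 TPM. Magi2 at 3.17 ± 0.702 TPM and Plce1 at 3.06 ± 0.909 TPM did not differ beyond their spread, and Trpc6 was lowest at 0.493 ± 0.197 TPM. Nphs1, the third in young, was the fifth in IgG2a at 2.50 ± 2.71 TPM (n = 4), below Cd2ap at 12.3 ± 2.70 TPM and within 1 SD of Fat1 at 4.40 ± 2.65 TPM. With IgG2a replicate 1 left out the Nphs1 mean was 1.15 ± 0.396 TPM (n = 3) and that of Fat1 3.13 ± 0.934 TPM. In aPD1ab it was the fourth at 9.47 ± 6.97 TPM, within 1 SD of Fat1 at 8.00 ± 3.11 TPM. The 9 members together took 0.0764% to 0.137% of all counts in young, 0.0328% to 0.0465% in IgG2a and 0.0313% to 0.0691% in aPD1ab.

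The promoters are shown because Wt1 was the gene most like Nphs1 across the libraries, and its product is a zinc finger transcription factor that podocytes require and that binds GC-rich sites with the letters GTGGGNG. RefSeq windows of the 250 bases before the transcription start (GRCm38.p6) were found for 8 of the 9 members, Magi2 having 2, and Podxl had no entry. The windows of Nphs1, Fat1 and Plce1 and the second of Magi2 lay inside the span of their gene in GENCODE M21. For these the annotated start of the gene was further upstream. Windows of Nphs1, Kirrel, Fat1, Cd2ap, Magi2 and Plce1 overlapped an exon of the same gene, so not all of these letters need be promoter. GTGGGNG, searched on both strands, was in a window of 6 of these 8 members, and in 28.1% of all 32851 windows of the same length. The site nearest to each start, or the whole window where it lay outside annotated exons, is given 5′ to 3′ on the strand of the gene with the motif in capitals (CNCCCAC where it was on the other strand).
Nphs1, chr7:30459822-30459851, plus strand: agtacctgtgaGTGGGTGagagggaggtga
Fat1, chr8:44950087-44950116, plus strand: tcatagtcagtGTGGGTGgggaatgcttga
Cd2ap, chr17:42876448-42876477, minus strand: ctccaccccccCTCCCACccccgcctgccg
Magi2, chr5:19226916-19226945, plus strand: cctcctccccaCCCCCACgccacccgctca
Trpc6, chr9:8543892-8544141, plus strand: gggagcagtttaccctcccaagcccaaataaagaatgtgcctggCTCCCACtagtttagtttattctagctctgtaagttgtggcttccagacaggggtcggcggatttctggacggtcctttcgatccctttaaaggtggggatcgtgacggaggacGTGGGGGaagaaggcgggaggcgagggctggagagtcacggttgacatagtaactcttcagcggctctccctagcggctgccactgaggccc
Ptpro, chr6:137252049-137252298, plus strand: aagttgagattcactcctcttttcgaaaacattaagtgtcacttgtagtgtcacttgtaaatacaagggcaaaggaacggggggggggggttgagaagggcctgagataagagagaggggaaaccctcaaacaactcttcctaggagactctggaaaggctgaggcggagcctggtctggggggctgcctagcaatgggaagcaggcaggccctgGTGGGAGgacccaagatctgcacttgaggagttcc
The match began 225 bases upstream of the RefSeq start in Nphs1, 110 in Fat1, 42 in Cd2ap, 119 in Magi2, 35 in Ptpro and 92 and 206 in Trpc6. The windows of Kirrel and Plce1 held no match. The homeodomain core TAATTA was in the second Magi2 window alone (4.84% of all windows), the forkhead core TGTTTAC in none (3.17%) and the E-box CANNTG in windows of 5 members (66.2%), and no printed GTGGGNG match shared letters with these. These matches are letters in a sequence, not measured binding.

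The comparison of aged IgG2a with young mice addresses how the aged podocyte fraction differs. Nephrin, NEPH1, MAGI-2, phospholipase C epsilon and podocalyxin transcripts were lower in IgG2a, while Cd2ap and Ptpro were at young levels. Of the 9 members, 5 were called lower and none higher by edgeR's quasi-likelihood test at an adjusted p under 0.05 over 15953 genes, against 8.38% of all genes called lower. The same 5 members had no overlap between the groups in that direction, as had 9.45% of all genes. The median log2 fold change was -1.29 over the 9 members and 0.04 over all genes tested. Without IgG2a replicate 1, 7 members were called lower, against 23.5% of all genes, and 6 had no overlap, against 28.7%. That library, set apart in part by its high podocyte sum, was the highest of its group for 5 members, Nphs1, Fat1, Magi2, Plce1 and Podxl. Leaving it out was bound to lower their IgG2a means, so their calls without it are not independent of that choice. With all libraries DESeq2 and limma voom with sample quality weights each called 7 members lower (8.04% and 22.2% of all genes), the 5 of edgeR with Fat1 and Trpc6. Trpc6, called here and without IgG2a replicate 1, had 2 to 16 counts in the IgG2a libraries against 14 to 36 in young. It passed the filter on low counts through the young libraries, so its calls are no evidence of their own.

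**Figure D2:**
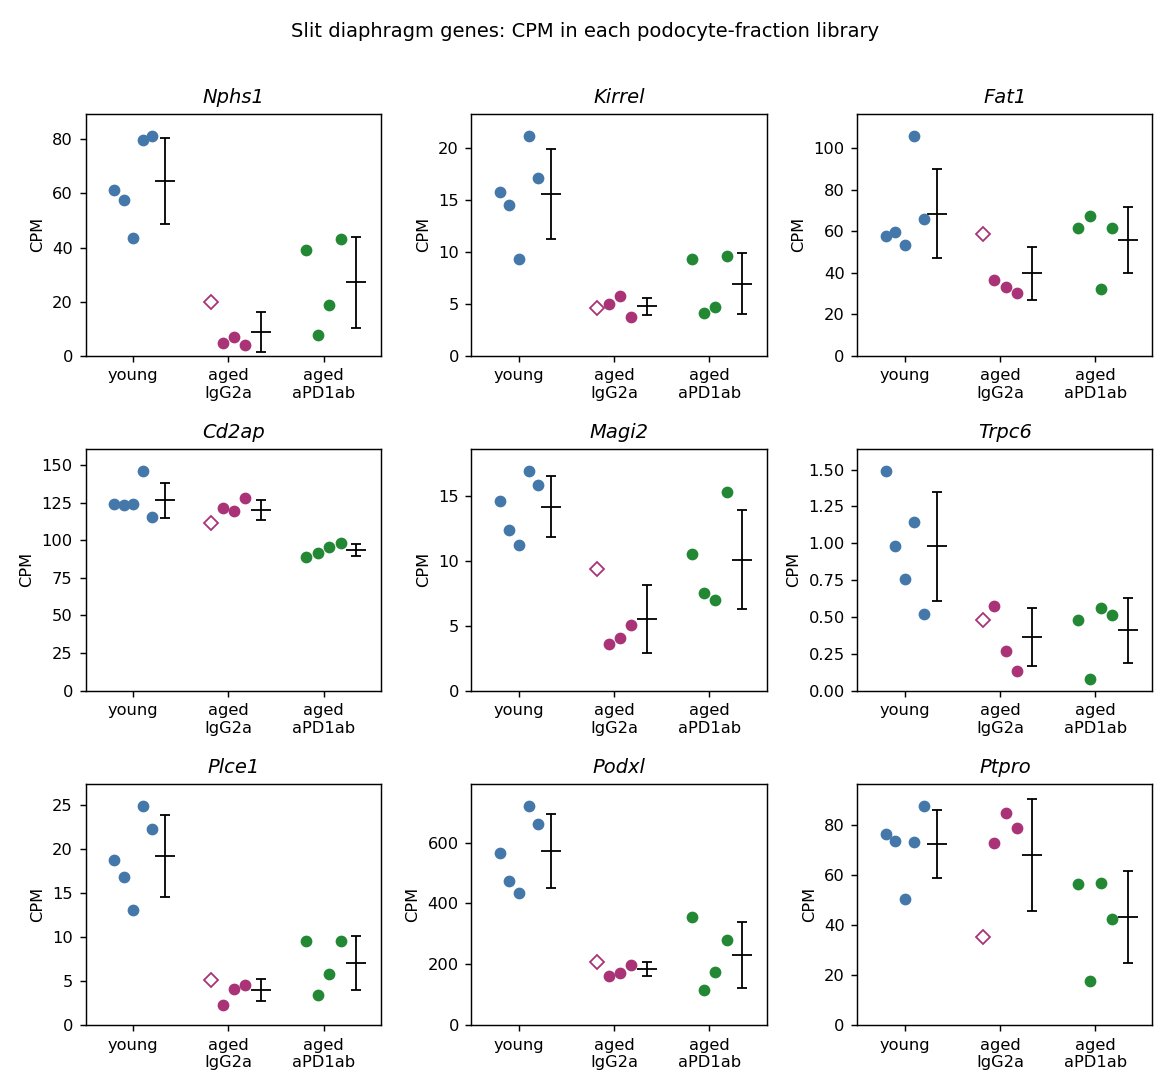
CPM scaled by the trimmed mean of M-values (TMM), y axis from 0, of the 9 members in each library by group, with the mean and SD beside the points. The open diamond is IgG2a replicate 1. For Nphs1, Kirrel, Magi2, Plce1 and Podxl every IgG2a library lay below every young library, and for Cd2ap every aPD1ab library lay below every other library.

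Nphs1 (ENSMUSG00000006649, chr7:30458315-30487223, plus strand, GRCm38) encodes nephrin, the backbone of the slit diaphragm and the protein on which the fractions were sorted. Its CPM was 61.4, 57.7, 43.4, 79.6 and 81.4 in the young libraries, 19.8, 4.57, 7.06 and 4.03 in IgG2a, and 39.1, 7.61, 18.7 and 43.1 in aPD1ab. The IgG2a libraries lay below all young ones, and the aPD1ab libraries spread from the IgG2a range up to the edge of the young range. In IgG2a it was 6.96-fold lower than in young (log2 fold change -2.80, SE 0.45, edgeR adjusted p = 0.0083). Without IgG2a replicate 1, the highest of its group, the log2 fold change was -3.55 (SE 0.28). The group mean was 13.7% of the young mean in IgG2a, 8.07% in IgG2a without replicate 1, and 42.0% in aPD1ab. Nphs1os, an antisense gene that overlaps Nphs1 and whose reads cannot be told apart without strand, had 0 to 5 counts in every library, against 1089 to 2368 counts of Nphs1 in young and 60 to 1521 in the aged libraries.

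Kirrel (ENSMUSG00000041734, chr3:87078593-87174747, minus strand), which encodes the nephrin partner NEPH1, was at 15.8, 14.5, 9.36, 21.2 and 17.1 CPM in young. It was at 4.57, 5.02, 5.72 and 3.70 CPM in IgG2a and at 9.36, 4.11, 4.65 and 9.64 CPM in aPD1ab. The IgG2a libraries were close together and all below young, and the aPD1ab libraries fell into a pair at the IgG2a level and a pair at the level of the lowest young library. Kirrel fell by 1.64 on the log2 scale in IgG2a (SE 0.23, edgeR adjusted p = 0.0049), and its change without IgG2a replicate 1 was nearly equal at -1.61.

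Fat1 (ENSMUSG00000070047, chr8:44935447-45052257, plus strand), a giant protocadherin of the foot process junction that other epithelia also make, was at 57.6, 59.8, 53.1, 106 and 65.9 CPM in young. In IgG2a it was at 58.6, 36.5, 33.3 and 30.0 CPM, and in aPD1ab at 61.4, 67.5, 32.2 and 61.5 CPM. IgG2a replicate 1 stood inside the young range and the other 3 IgG2a libraries below it. The log2 fold change of IgG2a against young was -0.73 (SE 0.24, edgeR adjusted p = 0.0626), and without IgG2a replicate 1 Fat1 was called lower at -0.96 (SE 0.22, edgeR adjusted p = 0.0062).

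Cd2ap (ENSMUSG00000061665, chr17:42792951-42876665, minus strand), an adaptor that ties nephrin to actin and to PI3K signaling and is expressed in many cell types, was the steadiest member. It was at 125, 123, 124, 146 and 115 CPM in young, 112, 122, 120 and 128 CPM in IgG2a, and 89.1, 91.5, 95.3 and 98.6 CPM in aPD1ab. Young and IgG2a overlapped (log2 fold change 0.0019, 95% interval -0.25 to 0.26), and the aPD1ab libraries lay below both groups. This depends on the TMM scaling, since in TPM the mean was 20.3 ± 3.49 in young, 12.3 ± 2.70 in IgG2a and 12.9 ± 2.50 in aPD1ab.

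Magi2 (ENSMUSG00000040003, chr5:19227036-20704792, plus strand) encodes a scaffold that gathers nephrin at the slit. It was at 14.6, 12.3, 11.2, 16.9 and 15.8 CPM in young, 9.34, 3.55, 4.07 and 5.04 CPM in IgG2a, and 10.5, 7.49, 7.00 and 15.3 CPM in aPD1ab. All IgG2a libraries were below young, with replicate 1 the nearest, and the aPD1ab libraries overlapped both groups. Magi2 was called lower in IgG2a (log2 fold change -1.29, SE 0.26, edgeR adjusted p = 0.0166), at -1.68 without IgG2a replicate 1. Without IgG2a replicate 3 the adjusted p was 0.0567, above the threshold.

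Trpc6 (ENSMUSG00000031997, chr9:8544142-8680741, plus strand), a calcium channel of the slit diaphragm complex, was near the detection limit. Its counts were 36, 32, 19, 34 and 14 in young, 16, 14, 5 and 2 in IgG2a, and 12, 2, 10 and 18 in aPD1ab, and the lowest library of each aged group lay under the floor of 3 counts. Young replicate 5 fell within the range of both aged groups in CPM. The log2 fold change of IgG2a against young was -1.29 (SE 0.44, edgeR adjusted p = 0.0666), and without IgG2a replicate 1 it was -1.42 (SE 0.51, edgeR adjusted p = 0.0415). Trpc6 passed the filter on low counts there through the young libraries, so this call is no evidence of its own.

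Plce1 (ENSMUSG00000024998, chr19:38481109-38785030, plus strand) encodes phospholipase C epsilon, needed for glomerular development. It was at 18.7, 16.8, 13.1, 24.9 and 22.3 CPM in young, 5.19, 2.32, 4.07 and 4.57 CPM in IgG2a, and 9.60, 3.42, 5.77 and 9.50 CPM in aPD1ab. Both aged groups lay wholly below young, and they overlapped each other. It was 4.53-fold lower in IgG2a (log2 fold change -2.18, SE 0.25, edgeR adjusted p = 0.0025), the second largest decrease of the 9 members after Nphs1.

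Podxl (ENSMUSG00000025608, chr6:31519488-31563981, minus strand) was at 565, 475, 433, 721 and 661 CPM in young, 209, 161, 172 and 197 CPM in IgG2a, and 356, 115, 175 and 279 CPM in aPD1ab. Every aged library was below every young library, and the aPD1ab libraries spread to both sides of the IgG2a range. Podxl was 2.94-fold lower in IgG2a than in young (log2 fold change -1.56, SE 0.19, edgeR adjusted p = 0.0027). It gave 56.9% to 61.9% of the members' counts in young and 39.5% to 46.0% in IgG2a.

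Ptpro (ENSMUSG00000030223, chr6:137252319-137463233, plus strand) encodes GLEPP1, a receptor tyrosine phosphatase of the podocyte surface that is also made by some leukocytes, macrophages among them. It was at 76.7, 73.8, 50.7, 73.3 and 87.9 CPM in young, 35.3, 73.0, 85.1 and 78.9 CPM in IgG2a, and 56.7, 17.9, 57.1 and 42.5 CPM in aPD1ab. Unlike the members that fell, it was lowest of its group in IgG2a replicate 1 and at the young level in the other 3 IgG2a libraries, which also held the highest macrophage sums, 7359, 7028 and 5912 CPM. The part of those cells in the Ptpro counts was not tested. Its log2 fold change was -0.0041 with all libraries (95% interval -0.58 to 0.57) and 0.20 without IgG2a replicate 1 (edgeR adjusted p = 0.291). In TPM the mean was 27.4 ± 6.06 in young and 15.6 ± 3.55 in IgG2a, so its standing against young also depends on the scaling.

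**Figure D3:**
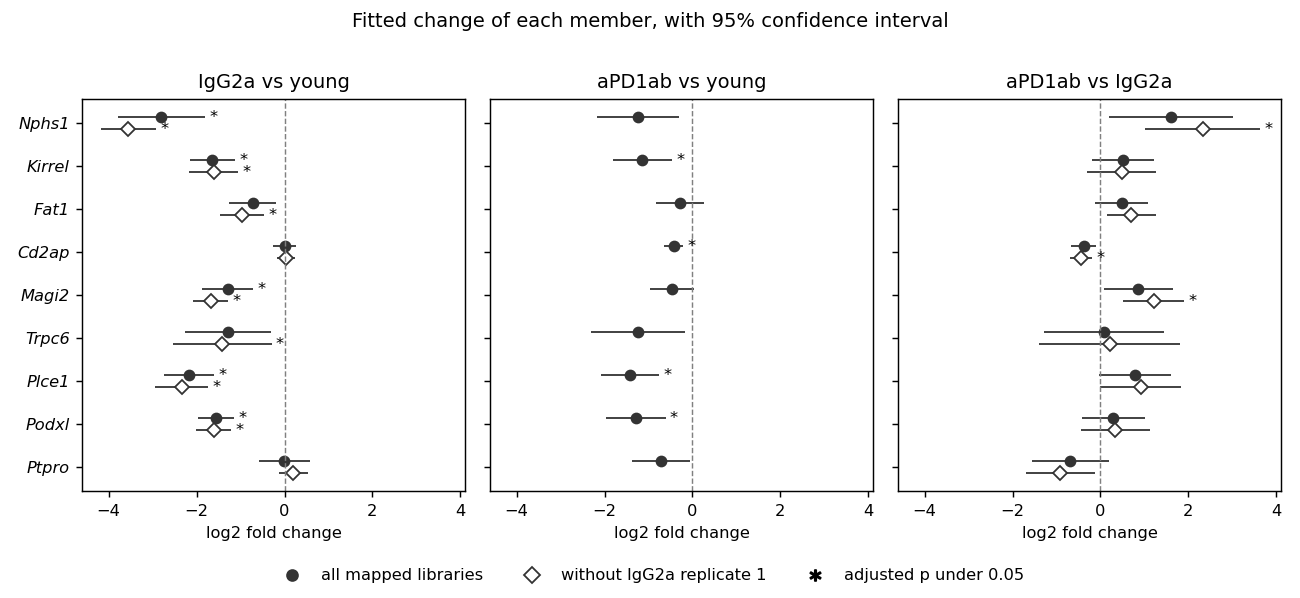
Log2 fold change (x axis) of each member in the 3 comparisons from edgeR, with 95% confidence intervals, for all mapped libraries (filled circles) and without IgG2a replicate 1 (open diamonds), and an asterisk at an adjusted p under 0.05. The members called lower in IgG2a against young sit between -2.80 and -1.29 with all libraries, and in these fits no member is called in aPD1ab against IgG2a until IgG2a replicate 1 is left out.

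The comparison of aPD1ab with IgG2a asks how the fractions of aged mice differ with the anti-PD-1 antibody. With all 8 libraries no member was called (edgeR, 0 of 9), nor was any of the 15530 genes tested (0% in each direction). At an unadjusted p under 0.05 there were 3 members, Nphs1, Magi2 and Cd2ap, beside 27.9% of all genes. DESeq2 called Nphs1 higher and Cd2ap lower (5.10% of all genes higher and 3.31% lower), and limma voom with sample quality weights called 4 members higher and 2 lower (20.9% and 18.9% of all genes). In 1 edgeR fit of all 3 groups Cd2ap was called lower (adjusted p = 0.0345, with 6.14% of all genes called lower). The fitted change was above 0 for 7 members and below 0 for Cd2ap and Ptpro, as it was for 50.9% of all genes. The values in aPD1ab and IgG2a overlapped for every member but Cd2ap, which lay lower in all 4 aPD1ab libraries, as did 4.91% of all genes.

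Nphs1 had the largest fitted difference, 3.03-fold higher in aPD1ab (log2 fold change 1.60, SE 0.62, 95% interval 0.19 to 3.01, edgeR adjusted p = 0.143). Magi2 stood at 0.86 (SE 0.35, edgeR adjusted p = 0.153), Plce1 at 0.79 (adjusted p = 0.191), Kirrel at 0.52 (adjusted p = 0.292), Fat1 at 0.48 (adjusted p = 0.261), Podxl at 0.30 (adjusted p = 0.557) and Trpc6 at 0.09 (adjusted p = 0.938) on the log2 scale. Cd2ap stood at -0.38 (SE 0.13, edgeR adjusted p = 0.122) and Ptpro at -0.68 (SE 0.39, adjusted p = 0.271). The aPD1ab libraries differed from each other more than the young ones did for several members. The coefficient of variation in aPD1ab was 62.1% for Nphs1, 46.4% for Podxl and 42.2% for Ptpro, against 24.6%, 21.3% and 18.7% in young. The aPD1ab replicate 2 library was the lowest of its group for 6 of the 9 members and had the lowest podocyte sum of that group, 111 CPM. With that library left out, edgeR called 0 of 15788 genes in this comparison.

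Leaving out IgG2a replicate 1 changed this comparison. Nphs1 was then called higher in aPD1ab (log2 fold change 2.33, SE 0.57, edgeR adjusted p = 0.0202), as was Magi2 (1.22, SE 0.30, edgeR adjusted p = 0.0205), and Cd2ap was called lower (-0.44, SE 0.11, edgeR adjusted p = 0.0194). These 2 members called higher and 1 called lower of 9 stood against 17.1% and 13.2% of all genes. Nphs1 and Magi2 had no overlap on the higher side (25.6% of all genes), and Cd2ap and Ptpro had none on the lower side (17.8%). Nphs1 was then at 4.03 to 7.06 CPM in IgG2a, just below the lowest aPD1ab library at 7.61 CPM. IgG2a replicate 1 was set apart in part by its podocyte sum, the highest of its group at 202 CPM. It was also the highest of its group for Nphs1 (19.8 CPM) and Magi2 (9.34 CPM) and the lowest for Cd2ap (112 CPM). Leaving it out was bound to widen these differences, so their calls are not independent of that choice. Fat1 (0.70, adjusted p = 0.0614), Plce1 (0.91, adjusted p = 0.115) and Ptpro (-0.91, adjusted p = 0.0735) did not pass the threshold. The lower Cd2ap level in aPD1ab is again a result on the TMM scale, since in TPM the means were 12.9 ± 2.50 in aPD1ab and 12.3 ± 2.70 in IgG2a.

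Against young, the aPD1ab fractions had fitted changes below 0 for all 9 members and for 48.7% of all genes. Of these, 4 were called lower (edgeR adjusted p under 0.05, against 9.97% of all 15986 genes): Plce1 (log2 fold change -1.42, SE 0.30, adjusted p = 0.00997), Cd2ap (-0.42, SE 0.10, adjusted p = 0.0139), Podxl (-1.29, SE 0.31, adjusted p = 0.016) and Kirrel (-1.14, SE 0.30, adjusted p = 0.0238). Without young replicate 4 or without aPD1ab replicate 3 Kirrel had an adjusted p of 0.0543 or 0.0567. Nphs1 stood at -1.23 (SE 0.42, adjusted p = 0.0594) although every aPD1ab library lay below every young one, which held for 4 members and for 10.7% of all genes. Without aPD1ab replicate 1, 2 or 4 it was called lower, at -1.46, -0.92 and -1.55. Magi2 at -0.47 (adjusted p = 0.164) was called only without aPD1ab replicate 4 (-0.74, adjusted p = 0.0311) among the libraries left out in turn. Trpc6 (-1.24, adjusted p = 0.0883), Ptpro (-0.72, adjusted p = 0.104) and Fat1 (-0.28, adjusted p = 0.437) did not pass. DESeq2 and limma voom each called 6 members lower (8.08% and 11.5% of all genes), the 4 of edgeR with Nphs1 and, respectively, Trpc6 or Ptpro. The 3 comparisons share groups, so their counts are not independent of each other.

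Members were next set against the 11 other podocyte genes by scaling each library to them instead of to all genes. These genes stood at 78.2% to 123% of the young mean in young, at 45.4%, 18.6%, 25.2% and 18.1% in the IgG2a libraries and at 72.4%, 19.1%, 44.8% and 66.9% in aPD1ab. On this scale 92.3% of all genes were called higher and 0.251% lower in IgG2a against young. Nphs1 was the only member called lower, by 1.12 on the log2 scale (SE 0.31, edgeR adjusted p = 0.00063), and it was lower in all 4 IgG2a libraries than in any young library, at -0.55, -1.37, -1.18 and -1.50 from the young mean. Of the 11 podocyte genes themselves, 4 were called lower and 1 higher on this scale. Among the 39 tested nephrin complex genes described below, 35 were called higher and 1 lower, Ddn at -0.84 (edgeR adjusted p = 0.0181). A fall on this scale was therefore not particular to Nphs1. Kirrel (0.31), Magi2 (0.51), Trpc6 (0.51), Plce1 (-0.28) and Podxl (0.39) were not called, with 95% intervals that span 0. Without IgG2a replicate 1, Nphs1 was at -1.46 (0.993% of all genes called lower). Podxl was then called higher at 0.51 (edgeR adjusted p = 0.0482), as were 92.3% of all genes. The median over all genes was 2.07 in that fit, above Podxl.

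Fat1 (1.13), Cd2ap (1.93) and Ptpro (2.03) were called higher relative to the podocyte genes in IgG2a, as were nearly all genes. Ptpro in particular was at 0.11 on this log2 scale in IgG2a replicate 1 and at 2.44, 2.23 and 2.60 in the other 3 IgG2a libraries. In aPD1ab against IgG2a, Ptpro was the only member called, lower by 1.83 (SE 0.61, edgeR adjusted p = 0.0437, with 7.01% of all genes called lower). This call was lost without any library of the 2 groups other than IgG2a replicate 1 and aPD1ab replicate 2 (adjusted p 0.112 to 0.367). Without IgG2a replicate 1 it was at -2.18 (adjusted p = 0.00602, with 19.9% of all genes called lower). Without aPD1ab replicate 2, Cd2ap was called as well (-1.65, edgeR adjusted p = 0.00398). In that fit 10120 of 15788 genes were called lower, with a median log2 fold change of -1.23. Nphs1 stood at 0.74 (SE 0.60, adjusted p = 0.385) and its difference from IgG2a on this scale was not detectable. In aPD1ab against young, Fat1 alone was called (1.15, adjusted p = 0.0259, with 70.9% of all genes called higher), and it was not called without aPD1ab replicate 2 (0.37, adjusted p = 0.271) or without young replicate 1, 2 or 5. Cd2ap (0.91, adjusted p = 0.083) was called higher without aPD1ab replicate 1 or 4, at 1.11 both times. In those fits 12697 of 16266 and 12884 of 16210 genes were called higher. The median log2 fold change over all genes was 1.53 and 1.55, above that of Cd2ap.

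**Figure D4:**
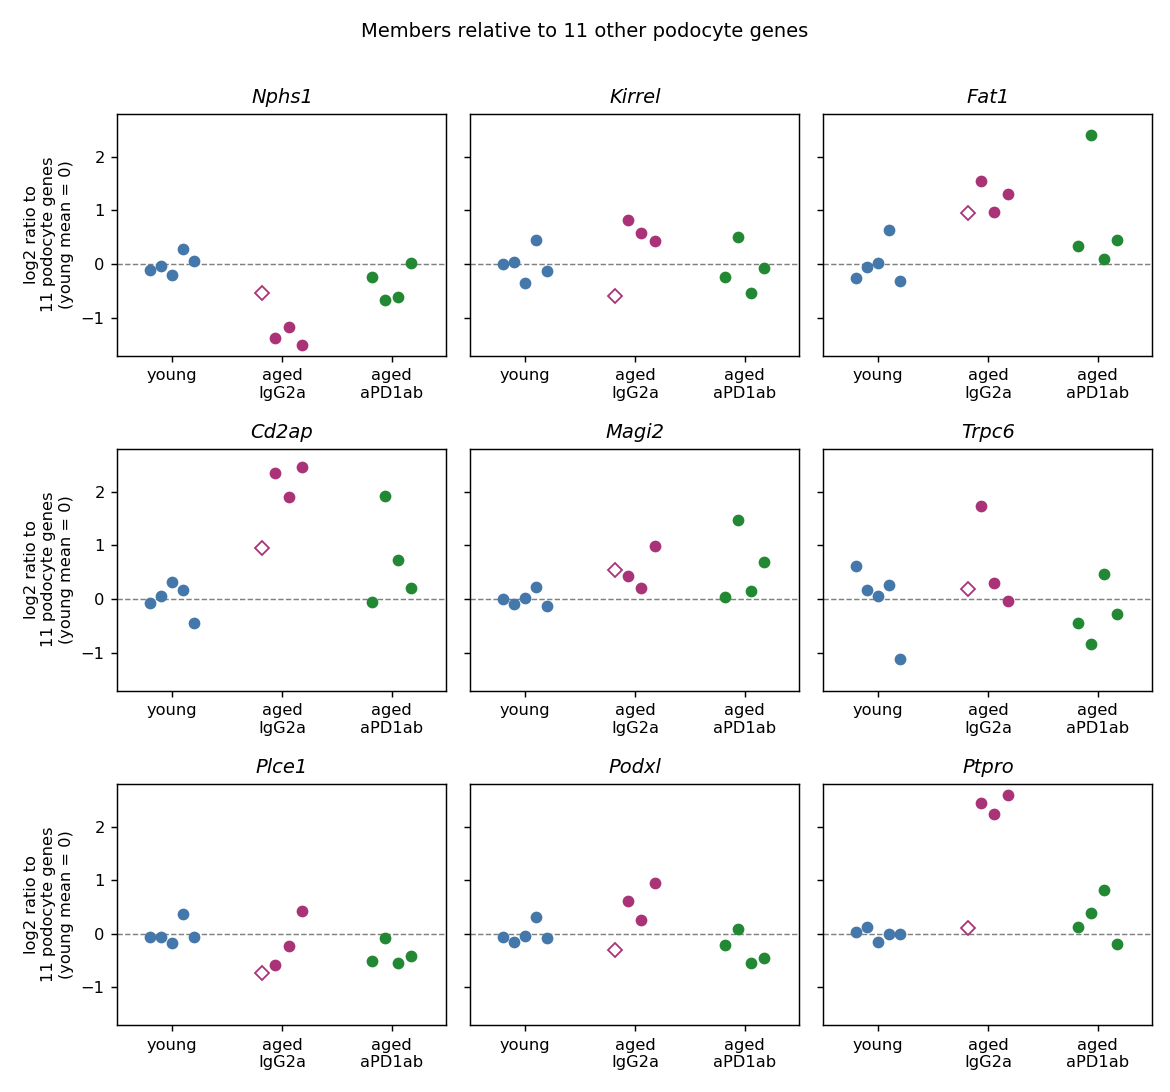
Log2 ratio (y axis) of each member to 11 other podocyte genes in each library, centered on the young mean. Nphs1 lies below the young libraries in all 4 IgG2a libraries, and Fat1 and Cd2ap lie above them in all 4. Ptpro lies above them in IgG2a replicates 2 to 4 only. The open diamond is IgG2a replicate 1.

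Likeness to Nphs1 was read across the 13 libraries. The genes with the highest Pearson correlation of log2 CPM, of 16330 genes, included Wt1 (r = 0.994), Snx31 (0.986), Tdrd5 (0.985), Ddn (0.984), Lmx1b (0.976), Gabra4 (0.971) and Sema3e (0.971). Wt1, Tdrd5 and Lmx1b are in the list of 11 podocyte genes above. After centering on each group's mean, the correlation with Wt1 was 0.977. These are descriptions over libraries that share 3 groups and differ in podocyte content. Among the members, Magi2 (r = 0.942) ranked at 30 of all genes in likeness to Nphs1 and Plce1 (0.941) at 31, followed by Kirrel (0.895) at 63 and Podxl (0.887) at 74. Trpc6 (0.745), Fat1 (0.727), Ptpro (0.178) and Cd2ap (0.120) were less like Nphs1. The closest pair within the members was Plce1 with Podxl (r = 0.964, 0.908 within groups). The only pairs with a negative correlation over all libraries were Ptpro with Fat1 (-0.26) and Ptpro with Magi2 (-0.03).

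A further 40 genes of the nephrin complex and its signaling, 8 adhesion, 15 scaffold and 17 signaling genes, were read beside the members. Of the 39 tested in IgG2a against young, 10 were called lower and 4 higher (8.38% and 9.05% of all genes), with a median log2 fold change of -0.21. The 10 include Trpc5, at 0.298 to 0.557 CPM in young and 0.134 to 0.214 CPM in IgG2a. Trpc5 passed the filter on low counts through the young libraries, so its call is no evidence of its own. The lowest p among those that fell belonged to Ddn, which encodes dendrin, a nephrin-binding protein (log2 fold change -2.57, SE 0.32), Crb2, a polarity protein of the foot process (-2.15, SE 0.28), Robo2, a nephrin-binding receptor of the Slit ligands (-2.09, SE 0.30), and Prkca (-0.89, SE 0.13). Sirpa (1.29, SE 0.30), a signal regulatory receptor found in podocytes and abundant in macrophages, Cdh3 (0.81), Grb2 (0.65) and Arrb2 (1.05) rose. Sirpa was at 151 to 277 CPM in young, 235 CPM in IgG2a replicate 1, and 560 to 646 CPM in the other 3 IgG2a libraries. Without IgG2a replicate 1, 21 genes were called lower and 8 higher (23.5% and 22.1% of all genes). Kirrel2, the NEPH3 gene, was at 0 to 14 counts and was not tested.

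In aPD1ab against IgG2a, 37 of these genes were tested and none was called by edgeR, with 6 at an unadjusted p under 0.05 (27.9% of all genes). DESeq2 called 2 higher and 2 lower (5.10% and 3.31% of all genes) and limma voom 12 higher and 8 lower (20.9% and 18.9%). Without IgG2a replicate 1, 11 were called higher and 5 lower (17.1% and 13.2% of all genes). Those with the lowest p were the adaptor gene Nck2 (0.89), Pard6b (0.71), Bcar1 (0.95) and Slc9a3r1 (1.16), which were higher in aPD1ab, and Sirpa (-0.95), Fyn (-0.69), Iqgap1 (-0.89) and Grb2 (-0.54), which were lower. Nck2 was at 8.89 to 9.55 CPM in IgG2a replicates 2 to 4, 18.3 CPM in replicate 1 and 15.7 to 19.5 CPM in aPD1ab. In aPD1ab against young, 3 of 39 were called lower and 2 higher (9.97% and 12.4% of all genes). These were Tjp1 (-0.96, SE 0.17), which encodes ZO-1, Robo2 (-1.55, SE 0.34) and Trpc5, and Cdh3 (0.68) and Sirpa (0.55) on the higher side. Trpc5 had 8 to 17 counts in the young libraries and 0 to 2 in aPD1ab, under the floor of 3 counts. It passed the filter on low counts through the young libraries and was not tested between the aged groups, so its call here is no evidence of its own.

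**Figure D5:**
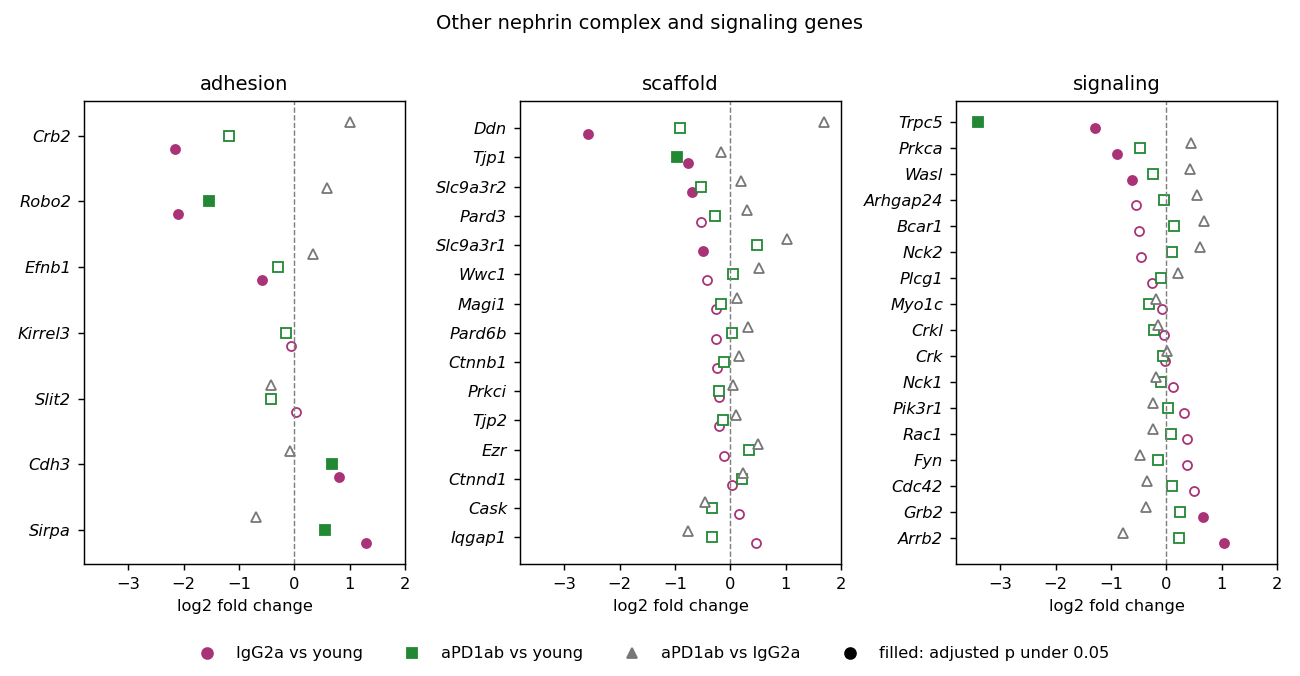
Log2 fold change (x axis) of the 39 tested nephrin complex and signaling genes that are not members, in 3 role groups, for IgG2a against young (circles), aPD1ab against young (squares) and aPD1ab against IgG2a (triangles), all mapped libraries. Filled symbols mark an adjusted p under 0.05. Ddn, Crb2 and Robo2 sit farthest below 0 in IgG2a against young, and no triangle is filled.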

How the data were processed

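Podocyte fractions were isolated from digested mouse kidney cortex by magnetic sorting with 2 antibodies to nephrin, and bulk mRNA was sequenced from TruSeq libraries. The authors deposited a table of raw counts per Ensembl gene, and their processing notes name HISAT2, featureCounts and GRCm38 (mm10). The strand setting and the annotation release are not given in the sources used here, so reads of overlapping antisense genes cannot be told apart. Columns of the table were tied to a group through the numbers in the principal component plot of the study, and 2 columns were not used. Replicate numbers only name columns. Labels give each sample a mouse of its own.

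Counts of each pair of groups were tested with edgeR 4.0.16 (quasi-likelihood, robust, TMM, filterByExpr), with Benjamini-Hochberg adjustment over all genes tested and a threshold of 0.05. The same fit was repeated without IgG2a replicate 1, which the tables of the study also leave out, and with libraries scaled to 11 podocyte genes by the median of ratios. Alternatives were DESeq2 1.42.0, limma 3.58.1 voom with sample quality weights, 1 fit of all 3 groups, RLE scaling, no low count filter, summed reference counts and each library left out. TPM used the summed exon length of GENCODE M21, and likeness was computed on log2 CPM (prior count 2). The fits were also run on simulated counts with the same dispersion for every gene and no library apart from its group. That run does not show how the fits perform with a library such as IgG2a replicate 1. Symbols were matched for 45143 of 46078 genes. Depth was 19912969 to 32717100 counts, and the floor of 3 counts equalled 0.0851 to 0.202 CPM. The 95% intervals of fold changes rest on the spread between libraries, and the floor covers counting error only.

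The rule for named genes was: all 9 members, up to 4 genes per direction with the smallest p among those called in the list of 40 other nephrin complex genes, and the 8 genes most like Nphs1. The members and lists were chosen with earlier results of these data known. Some single genes are not reported here.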

Additional observations from a re-analysis of the deposited data

Results flagged for a closer look

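Each member's CPM was examined in each group of 4 or 5 libraries for a library far from the rest of its group, which gave 27 tests and 2 flags. Chance flags about 1 in 20 such groups. Fat1 was at 105.9 CPM in young replicate 4, where the gap to the nearest library was 0.758 of the range of the 5 young libraries. The other 4 young libraries were at 53.1 to 65.9 CPM. Trpc6 was at 0.0814 CPM in aPD1ab replicate 2, with a gap of 0.836 of the range of its 4 libraries, and that value rested on 2 counts.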

How the results depend on the processing

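No paired analysis was possible because the replicate numbers of the columns only name them and pair no mice across groups. The members called lower numbered 4 to 7 in IgG2a against young (5 as reported) and 3 to 6 in aPD1ab against young (4 as reported) under all alternatives. In aPD1ab against IgG2a the members called higher, 0 as reported, were 1 with DESeq2, 4 with limma voom and 0 in 1 fit of all 3 groups, which called 1 lower, and 0 to 2 with each library left out, the 2 being without IgG2a replicate 1. Of the 40 other nephrin complex genes, 14 called in IgG2a against young became 30 with limma voom and 4 to 29 with each library left out, the 29 without IgG2a replicate 1. In aPD1ab against IgG2a none became 4 with DESeq2, 20 with limma voom, 6 in 1 fit of all 3 groups and 0 to 16 with each library left out. In aPD1ab against young 5 became 8 with DESeq2 and 3 to 9 with each library left out. Calls over all genes moved too. In IgG2a against young limma voom called 3549 lower and 3898 higher of 15953 genes. Leaving out each library gave 293 to 3813 lower and 260 to 3584 higher. In aPD1ab against IgG2a limma voom called 18.9% lower and 20.9% higher, and DESeq2 3.31% and 5.10%. The 1 fit of all 3 groups called 1002 and 1861 of 16330. Libraries left out there gave 0 to 2086 lower and 0 to 2702 higher. In aPD1ab against young such fits gave 1024 to 1746 lower and 1293 to 2122 higher. The fits with a library left out tested 15691 to 16311 genes. Relative to the podocyte genes, the 1 member called in aPD1ab against IgG2a and the 1 in aPD1ab against young each became 0 to 2. Over all genes, 9 to 10120 were called lower and 0 to 361 higher on that scale in aPD1ab against IgG2a. Against young, 9 to 87 were called lower and 7861 to 12884 higher. The cause of these shifts was not tested. Signs changed only for values that were not called. Cd2ap in IgG2a against young moved from 0.0019 to -0.015 (DESeq2), -0.063 (1 fit of all 3 groups), -0.0074 (RLE) and -0.039 (no filter), and spanned -0.057 to 0.060 with each library left out. Ptpro there was 0.19 with limma voom and spanned -0.13 to 0.20. Trpc6 in aPD1ab against IgG2a spanned -0.12 to 0.42. Relative to the podocyte genes, Trpc6 in IgG2a against young spanned -0.043 to 0.69, and in aPD1ab against IgG2a Fat1 spanned -0.85 to 0.10 (0.034 with summed reference counts), Plce1 -0.40 to 0.21 (0.056) and Magi2 -0.21 to 0.38. Kirrel in aPD1ab against young spanned -0.19 to 0.13 on that scale. Depth limited Trpc6, with 2 to 36 counts a library.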
